A study of Mus musculus with 18 samples.

Results

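The genes described here are 10 transcription factors that set and maintain the epithelial lineages of the lung, namely Nkx2-1, Foxa1, Foxa2, Foxp2, Sox2, Sox9, Cebpa, Gata6, Id2 and Klf5. They were chosen by name, and were followed in the 23 probe sets that carry only 1 of these symbols. For each gene the probe set with the highest mean over the arrays used was taken and the others served as a check, which gave 10 genes of the 18193 measured. Expression was measured on Affymetrix mouse arrays in 3 groups of 6 samples. The mice were B6C3F1/N, the F1 hybrids common in rodent carcinogenicity bioassays, and entered an inhalation study at 5 to 6 weeks of age. The groups were lung of vehicle controls, spontaneous lung tumors, and lung tumors found after inhalation of antimony trioxide. The last group is referred to as treated tumors. Exposure was to 0, 3, 10 or 30 mg/m3 by whole body inhalation and went on for up to 105 weeks, with 5 exposure days per week of 6 hours plus 12 minutes each. The control samples are labelled as lung and not as purified epithelium, and the tumors were dissected from lung and frozen, so every sample is a mixture of cells. The labels give neither the animal, its sex nor its exposure level for a sample, so p-values measure only the spread between these samples, which may in part be technical.

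Lung epithelium descends from endoderm that switches on Nkx2-1, whose product, together with the forkhead proteins FOXA1 and FOXA2 and the zinc finger protein GATA6, activates the surfactant and secretoglobin genes that define lung cells. During branching of the mouse lung, SOX9 and ID2 mark the dividing tips from which the alveoli form, whereas SOX2 marks the stalks that become bronchioles with their club and ciliated cells. CEBPA and KLF5 act later, in the maturation of alveolar epithelium, and in mouse lung adenocarcinoma the loss of NKX2-1 is known to let gastrointestinal genes come on.

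The promoters of 4 members are shown, that of Sox2 because it was the member that fell, those of Cebpa and Id2 because these genes gave the smallest adjusted p-values, and that of Foxa1 because it holds the only forkhead match. RefSeq promoters on the mouse build GRCm38.p6 were matched to 6 of the 10 members, with 8 start sites in all, and the 250 bases before each start are considered. Each was searched on both strands for 6 motifs, which were TGTTTAC for forkhead proteins, CACTTG for NKX2 proteins, ACAANG for SOX proteins, TTGCNNAA for C/EBP proteins, AGATAA for GATA proteins and CCNCNCCC for KLF proteins. Capitals mark every base that lies in a match, so that neighbouring or overlapping matches run together.
Foxa1, chr12:57546112-57546361, minus strand: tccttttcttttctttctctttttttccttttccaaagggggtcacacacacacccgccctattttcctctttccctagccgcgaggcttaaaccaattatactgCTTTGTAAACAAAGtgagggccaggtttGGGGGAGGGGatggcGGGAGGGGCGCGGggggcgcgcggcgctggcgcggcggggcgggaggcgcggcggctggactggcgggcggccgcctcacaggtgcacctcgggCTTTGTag
Sox2, chr3:34649745-34649994, plus strand: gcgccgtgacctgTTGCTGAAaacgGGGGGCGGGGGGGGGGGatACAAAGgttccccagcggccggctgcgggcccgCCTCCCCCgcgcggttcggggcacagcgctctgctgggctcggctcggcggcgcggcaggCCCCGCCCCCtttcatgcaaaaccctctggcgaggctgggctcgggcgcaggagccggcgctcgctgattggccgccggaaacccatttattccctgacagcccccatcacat
Cebpa, chr7:35119043-35119292, plus strand: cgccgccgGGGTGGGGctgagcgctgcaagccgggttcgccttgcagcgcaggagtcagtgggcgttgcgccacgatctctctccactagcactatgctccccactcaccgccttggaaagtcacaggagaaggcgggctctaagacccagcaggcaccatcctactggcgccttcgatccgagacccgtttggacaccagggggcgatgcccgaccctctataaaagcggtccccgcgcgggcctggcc
Id2, chr12:25096093-25096342, minus strand: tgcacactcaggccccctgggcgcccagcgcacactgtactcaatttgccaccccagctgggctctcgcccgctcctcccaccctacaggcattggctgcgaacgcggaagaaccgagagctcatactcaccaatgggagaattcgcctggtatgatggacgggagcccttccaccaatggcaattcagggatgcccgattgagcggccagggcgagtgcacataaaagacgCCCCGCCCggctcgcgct
The Foxa1 sequence holds 1 forkhead match, which lies at positions -141 to -135 from the start and overlaps a SOX match on either side, the overlapping letters being shared by the motifs. The forkhead letters occur in 3.17% of 32851 promoters of this length. The Sox2 sequence holds 1 SOX match and 1 C/EBP match, motifs found in 36.3% and 9.56% of promoters, besides 9 KLF matches, most of which overlap each other in 1 run of G. Cebpa and Id2 hold 1 KLF match each and no other, and KLF letters occur in 45.9% of promoters. Foxa2, with 3 start sites, has SOX, KLF and GATA matches among them, and the Nkx2-1 promoter has none of the 6 motifs. NKX2 and GATA letters occur in 11.6% and 9.99% of promoters. The dinucleotide CG occurs 21 times in the Foxa1 sequence, 27 times in that of Sox2, 22 times in that of Cebpa and 18 times in that of Id2, against a median of 6 and an upper quartile of 16 over all promoters. In the promoters not shown it occurs 9 times for Nkx2-1 and 6, 20 and 13 times for the 3 starts of Foxa2. These matches describe letters and do not show binding.

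Values are the deposited log2 values, made by robust multi-array averaging (RMA), so that 1 unit is a doubling of signal. Of the 18 arrays, 3 differed from the rest, namely control 5 and spontaneous tumors 5 and 6. Their median correlation with the other arrays was 0.30 to 0.48 against 0.92 to 0.97 on the 15 others, and the standard deviation of all their log2 values was 1.27 to 1.48 against 2.35 to 2.45. They were left out, which leaves 5 control, 4 spontaneous tumor and 6 treated tumor arrays, and values with all 18 arrays are given beside the results. The bacterial hybridization spike bioB also read higher on the 5 control arrays (10.65 to 11.24) than on the 10 tumor arrays (10.19 to 10.62), and its part in the differences between tumor and control was not tested. As a check of the labelled tissue, the mean of the surfactant gene Sftpc was 14.22 in control lung, 14.21 in spontaneous and 14.24 in treated tumors.

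On the deposited scale most lineage factors were higher in tumors of either kind than in control lung, and Sox2 was lower. In spontaneous tumors 7 of 10 members rose and 0 fell, in a comparison in which 33.0% of all genes were called, 20.1% higher and 12.9% lower. In treated tumors 8 of 10 rose and 1, Sox2, fell, where 38.8% of all genes were called, 23.8% higher and 15% lower. A gene is called, and said to have risen or fallen, where limma's moderated test gave an adjusted p under 0.05 over all 18193 genes. The median log2 difference of the 10 members was 0.77 in spontaneous and 0.69 in treated tumors, against 0.12 and 0.09 for all genes. Over all 18 arrays the called members were 1 (Sox9) in spontaneous tumors and 3 (Sox9, Cebpa and Id2) in treated tumors, where 4.16% and 7.42% of all genes were called. Because epithelial genes also differed between the groups, values were also expressed relative to the mean of 8 epithelial genes on the same array. This scaling moved the median of all genes to -0.19 in spontaneous and -0.44 in treated tumors. On it 3 members were called in spontaneous tumors (Sox9, Cebpa and Id2, higher) and 5 in treated tumors (these and Foxp2 higher, Sox2 lower), while 21.3% and 44.8% of all genes were called, and Nkx2-1, Foxa1, Gata6 and Klf5 changed sign in treated tumors and Foxa1 in spontaneous tumors. Both comparisons use the same control arrays. In bulk tissue, fewer cells of a type and less RNA per cell cannot be told apart, and this holds for every value below.

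**Figure D1:**
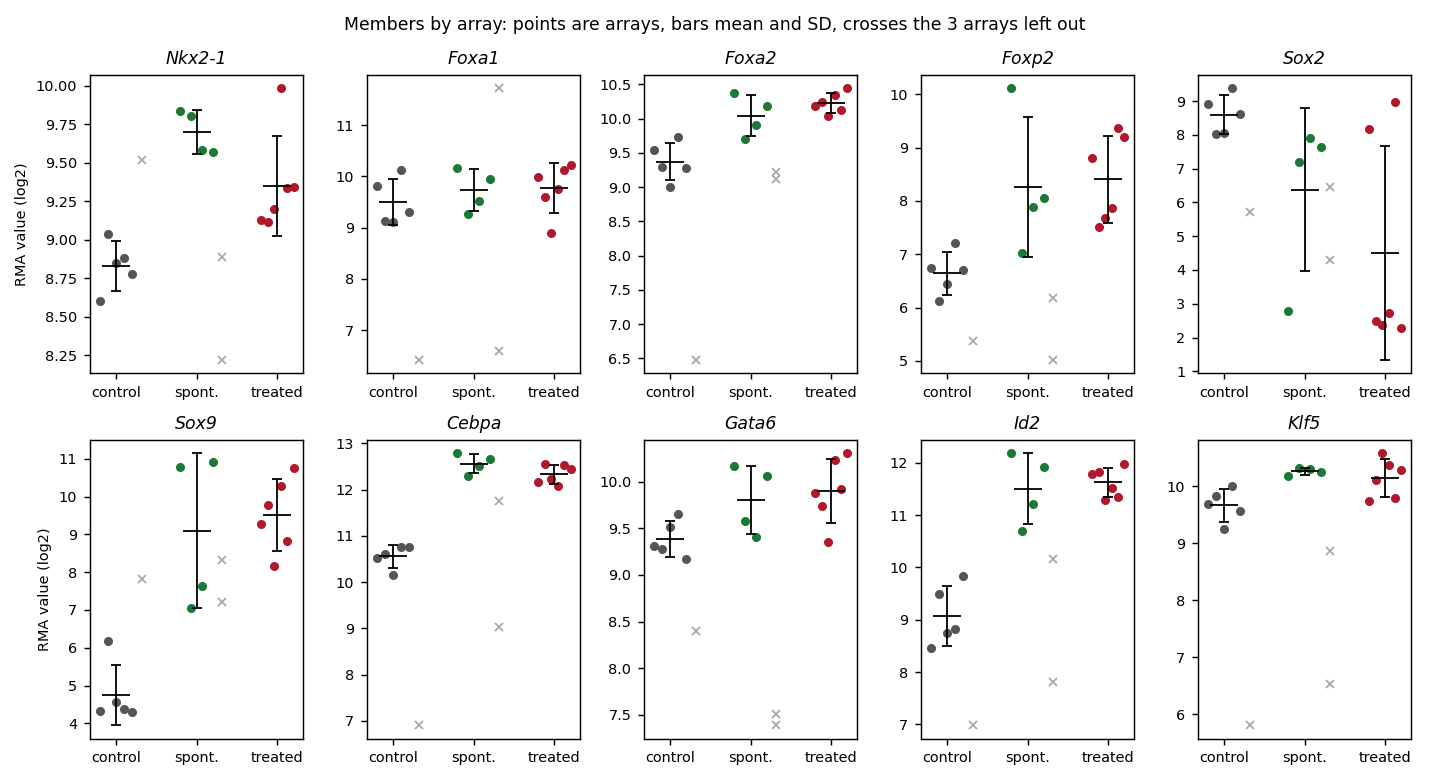
RMA log2 value of each member on each array, by group, with a vertical axis of its own in each panel. Points are arrays, horizontal bars with whiskers are the mean and SD of 5 control, 4 spontaneous and 6 treated arrays, and crosses are the 3 arrays left out. On the 15 arrays used, Cebpa and Id2 of every tumor lie above every control. Sox2 values of the tumors used fall at either end of a wide range. The crosses of spontaneous tumor 5 lie below all 5 control arrays used for Cebpa and Id2.

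Sox9, whose product is a high mobility group factor of the distal lung tips and also the master regulator of cartilage, was higher in both tumor groups. Its control values were 4.33, 6.17, 4.57, 4.38 and 4.31, and those of the spontaneous tumors were 10.79, 7.05, 7.62 and 10.92. Treated tumors ran from 8.18 through a median of 9.52 to 10.76. Every tumor array was thus above every control array, and control 2 stood above the other controls. The log2 difference was 4.34 ± 0.77 (SE, adjusted p = 0.000567 by limma) in spontaneous tumors, a 20.3-fold difference of signal with a 95% interval from 6.50 to 63.2. In treated tumors it was 4.76 ± 0.69 (limma, adjusted p = 7.9e-05), or 27.1-fold with an interval from 9.70 to 75.5. Control values from 4.31 to 4.57 on 4 arrays lie low on the arrays, and without a detection call it is not known how much of them is background, so these folds describe signal and may not measure the difference in RNA. The values with all 18 arrays were 3.38 (adjusted p = 0.0119) and 4.25 (adjusted p = 0.00127). All 3 probe sets of the gene rose in both comparisons, by 0.58 to 4.34 in spontaneous and 0.82 to 4.76 in treated tumors, and the smallest value belongs to the dimmest probe set. Of 4 cartilage markers 0 were called in either comparison (relative to epithelial genes, 0 and 3 were lower), and their mean level was 4.59 to 4.96 in control lung, 4.76 to 5.29 in spontaneous and 4.66 to 4.96 in treated tumors. Matn1, a cartilage matrix protein, averaged 2.30 to 2.42 in the 3 groups, below the 5th percentile of each array's values (2.93 to 3.12).

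Id2 encodes a helix-loop-helix protein that lacks a DNA-binding region and holds back other factors of its class, and it is expressed in distal lung tips in the mouse embryo and in lymphocytes. Control lung gave 8.47, 9.49, 8.75, 8.83 and 9.83, spontaneous tumors 12.18, 10.70, 11.21 and 11.92, and treated tumors 11.30 to 11.97 with a median of 11.65. No tumor overlapped a control, spontaneous tumor 2 coming nearest. The difference was 2.43 ± 0.31 in spontaneous tumors (limma, adjusted p = 3.3e-05) and 2.55 ± 0.28 in treated tumors (limma, adjusted p = 5.6e-06), which are 5.39-fold and 5.86-fold. All 3 probe sets rose in both comparisons. Over all 18 arrays the treated value was 2.90 (adjusted p = 0.00379), while the spontaneous value of 1.94 was not called (adjusted p = 0.0777). Of 5 markers of T and NK cells, which also express Id2, 2 fell in spontaneous and 5 in treated tumors, and 0 and 3 fell with all 18 arrays. Their mean level was 6.88 to 8.62 on control, 5.65 to 7.54 on spontaneous and 5.34 to 6.48 on treated tumor arrays, and the part of these cells in the Id2 difference was not tested.

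Foxp2, a forkhead repressor of the distal epithelium, rose in both tumor groups but varied widely among tumors. Control values were 6.74, 6.13, 6.44, 7.22 and 6.71, spontaneous tumors gave 10.11, 7.02, 7.89 and 8.05, and treated tumors ran from 7.52 through a median of 8.33 to 9.36. All treated tumors were above all controls, while spontaneous tumor 2 lay within the control range. The difference was 1.62 ± 0.53 in spontaneous tumors (limma, adjusted p = 0.0278) and 1.75 ± 0.48 in treated tumors (limma, adjusted p = 0.00854). The call in spontaneous tumors was lost without control 2 (1.49, adjusted p = 0.0583), without control 3 (1.57, adjusted p = 0.0556) or without spontaneous tumor 1 (1.00, adjusted p = 0.0927), with all 18 arrays (0.94, adjusted p = 0.605) and relative to epithelial genes (1.31, adjusted p = 0.0728). In treated tumors the value with all 18 arrays was 1.97 (adjusted p = 0.0682), and relative to epithelial genes it was 1.22 and still called (adjusted p = 0.0359). Of the 6 Foxp2 probe sets 4 were called higher in spontaneous and 5 in treated tumors, and all 6 were higher in both.

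Cebpa encodes a leucine zipper factor that is needed for the maturation of alveolar type 2 cells, the surfactant producers, and is also active in macrophages. It gave the smallest adjusted p of the members in both comparisons. Control lung read 10.52, 10.61, 10.16, 10.76 and 10.76, spontaneous tumors 12.78, 12.30, 12.50 and 12.67, and treated tumors 12.08 to 12.55 with a median of 12.34. The groups of tumor and control did not overlap, and the 10 tumors spanned only 0.70 units. The difference was 2.01 ± 0.15 in spontaneous tumors (limma, adjusted p = 3.1e-07) and 1.77 ± 0.14 in treated tumors (limma, adjusted p = 1.9e-07), or 4.01-fold and 3.41-fold. These became, with all 18 arrays, 1.89 (adjusted p = 0.128) and 2.38 (adjusted p = 0.0277). Of 6 alveolar type 2 markers 5 rose in each tumor group, and Napsa, an aspartic protease of these cells, rose by 3.03 and 2.31. Over all 18 arrays 0 and 1 of these markers rose, and relative to epithelial genes 2 rose in each group and 1 fell in treated tumors. The mean level of these markers was 12.05 to 12.82 on control, 13.39 to 13.53 on spontaneous and 13.24 to 13.41 on treated tumor arrays. Of 6 macrophage markers 1, Chil3, rose in each, and the median difference of the list was 1.56 in spontaneous and 1.25 in treated tumors. The mean level of the list was 7.50 to 10.96 in control lung, 9.53 to 10.93 in spontaneous and 9.58 to 11.28 in treated tumors. Controls 2 and 6, at 10.24 and 10.96, stood above the other controls, at 7.50 to 8.01. The part of either list in the Cebpa difference was not tested.

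Nkx2-1, the homeodomain factor that defines lung identity, was modestly higher in tumors. Its control values were 8.60, 9.04, 8.85, 8.88 and 8.78, its spontaneous tumor values 9.84, 9.80, 9.58 and 9.57, and its treated tumor values 9.12 to 9.98 with a median of 9.27. Every tumor array exceeded every control array, treated tumor 2 coming nearest to them. The rise was 0.87 ± 0.16 in spontaneous tumors (limma, adjusted p = 0.000820), or 1.82-fold, and 0.52 ± 0.15 in treated tumors (limma, adjusted p = 0.0103), or 1.43-fold. On all 18 arrays it was 0.37 (adjusted p = 0.687) and 0.41 (adjusted p = 0.532). Relative to epithelial genes the Nkx2-1 difference was 0.56 in spontaneous tumors (limma, adjusted p = 0.148) and -0.01 in treated tumors (limma, adjusted p = 0.974), so neither was called.

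Of the forkhead factors that open chromatin in endoderm, Foxa2 rose and Foxa1 was not called. Foxa2 read 9.54, 9.30, 9.01, 9.72 and 9.28 in control lung, 10.38, 9.70, 9.91 and 10.18 in spontaneous tumors, and 10.04 to 10.44 with a median of 10.21 in treated tumors. Spontaneous tumor 2 lay just below the highest control, and all treated tumors were above it. The difference was 0.67 ± 0.16 (limma, adjusted p = 0.00475) in spontaneous and 0.86 ± 0.14 (limma, adjusted p = 0.000250) in treated tumors. Relative to epithelial genes these were 0.36 (adjusted p = 0.324) and 0.33 (adjusted p = 0.201), and with all 18 arrays 0.87 (adjusted p = 0.406) and 1.34 (adjusted p = 0.0710), none of which was called. Foxa1 read 9.82, 9.14, 9.11, 10.12 and 9.30 in control lung, 10.17, 9.26, 9.53 and 9.95 in spontaneous tumors and 8.89 to 10.23 with a median of 9.87 in treated tumors, so that the 3 groups overlapped. Its differences were 0.23 ± 0.28 (limma, adjusted p = 0.567), with a 95% interval from -0.37 to 0.83, and 0.27 ± 0.26 (limma, adjusted p = 0.444), with an interval from -0.28 to 0.81.

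Gata6, a zinc finger factor of endoderm and of smooth muscle, read 9.31, 9.28, 9.52, 9.65 and 9.17 in control lung, 10.17, 9.57, 9.41 and 10.06 in spontaneous tumors and 9.36 to 10.30 with a median of 9.90 in treated tumors. The groups overlapped in both comparisons. The difference was 0.42 ± 0.20 in spontaneous tumors (limma, adjusted p = 0.122) and 0.52 ± 0.18 in treated tumors, where it was called (limma, adjusted p = 0.0324). That call was lost without any 1 of control 1, 2 or 6 or treated tumor 4, 5 or 6, with adjusted p up to 0.0753, and on the scale of epithelial genes the difference was -0.01 (adjusted p = 0.974). The differences over all 18 arrays were -0.20 and 0.68, and neither was called (adjusted p = 0.891 and 0.465). Each of the 3 Gata6 probe sets was called higher in treated and 0 in spontaneous tumors.

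Klf5, a zinc finger factor needed for perinatal maturation of mouse lung, read 9.69, 9.83, 9.25, 10.01 and 9.56 in control lung, 10.17, 10.32, 10.31 and 10.24 in spontaneous tumors, and 9.73 to 10.57 with a median of 10.20 in treated tumors. Spontaneous tumors were all above control lung and lay within 0.14 units of each other, while treated tumors overlapped the controls. The rise was 0.59 ± 0.18 (limma, adjusted p = 0.0192) and 0.48 ± 0.16 (limma, adjusted p = 0.0288). It was lost in spontaneous tumors without control 3 (0.49, adjusted p = 0.0505) and in treated tumors without any 1 of control 1, 3 or 6 or treated tumor 3, 4 or 6, with adjusted p up to 0.0872. Relative to epithelial genes the values were 0.29 (adjusted p = 0.424) and -0.05 (adjusted p = 0.847), and with all 18 arrays 0.38 (adjusted p = 0.867) and 1.12 (adjusted p = 0.420). Of 3 Klf5 probe sets 2 were called higher in spontaneous and 1 in treated tumors. Markers of smooth muscle, a tissue that also expresses Gata6 and Klf5, fell in both tumor groups, with 4 of 4 called.

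Sox2, the factor of the conducting airways, was the only member lower in tumors. Control lung read 8.90, 8.04, 8.05, 9.38 and 8.60. The 4 spontaneous tumors read 2.77, 7.20, 7.90 and 7.64, and the 6 treated tumors 8.17, 2.48, 2.39, 2.72, 8.97 and 2.29. All spontaneous tumors were below all controls, whereas treated tumors 1 and 5 lay within the control range and the other 4 far below it. Across the 10 tumors no value lay in an interval of 4.43 log2 units between 2.77 and 7.20, with 5 tumors on each side, and 6 of 18193 genes had an interval between neighbouring tumors as wide. The 5 low values were all below the 5th percentile of their array, and the deposited values carry no detection call, so how far Sox2 signal fell below that level is not known.

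The mean difference of Sox2 was -4.09 ± 1.30 in treated tumors (limma, adjusted p = 0.0207), with a 95% interval from -6.85 to -1.33. In spontaneous tumors it was -2.21 ± 1.44 (limma, adjusted p = 0.257), with an interval from -5.28 to 0.85, and -1.01 without spontaneous tumor 1 (adjusted p = 0.621). The values with all 18 arrays were -3.61 (adjusted p = 0.0784) and -2.07 (adjusted p = 0.508), so the call in treated tumors was lost. Relative to epithelial genes they were -4.62 (adjusted p = 0.00287) and -2.52 (adjusted p = 0.169). A single probe set measures Sox2, so no other probe set could serve as a check.

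**Figure D2:**
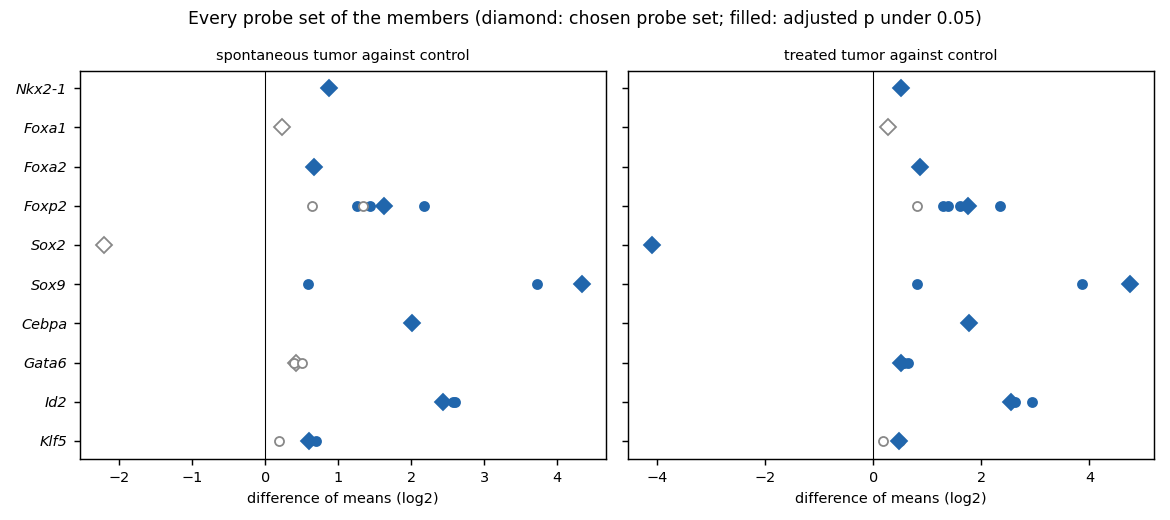
Difference of group means (log2) for each of the 23 member probe sets in spontaneous tumors (left) and treated tumors (right) against control lung. Diamonds are the probe sets chosen, circles the others, and filled symbols had an adjusted p under 0.05 by limma over all single-symbol probe sets. Every probe set has the sign of the chosen probe set of its gene, and the Sox9 probe sets range from 0.58 to 4.34 in spontaneous tumors.

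Counted by overlap, 5 members (Nkx2-1, Sox9, Cebpa, Id2 and Klf5) were higher in every spontaneous tumor than in every control, where 17.8% of all genes were, and 1 (Sox2) was lower, where 11.4% were. In treated tumors 6 members (Nkx2-1, Foxa2, Foxp2, Sox9, Cebpa and Id2) were higher without overlap, where 14.4% of all genes were. No member was lower in every treated tumor than in every control, where 10.1% of genes were.

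Treated and spontaneous tumors were then compared, which asks whether tumors of exposed mice differ from those that arose without exposure. Of the 10 members 0 were called by limma on 15 arrays, where 0.0550% of all genes were, 0.0330% higher and 0.0220% lower. The tumor groups overlapped in all 10 members, while 0.830% of all genes were higher and 0.797% lower in every treated than in every spontaneous tumor. At an unadjusted p under 0.05 there was 1 member, Nkx2-1, and 0 members with all 18 arrays or with array weights were called. Nkx2-1 was lower in treated tumors by -0.35 ± 0.16 (limma, adjusted p = 0.552), a 95% interval from -0.68 to -0.02, and 5 of 6 treated tumors were below all spontaneous tumors while treated tumor 4 was above them all. That difference was 0.034 with all 18 arrays (adjusted p = 0.942). Sox2 differed by -1.88 ± 1.38, with an interval from -4.82 to 1.07, and Sox9 by 0.42 ± 0.74, with an interval from -1.16 to 1.99. Cebpa differed by -0.23 ± 0.14, with an interval from -0.54 to 0.07. The other 6 members differed by -0.12 to 0.19, and their intervals lay within -0.95 to 1.21. A difference that misses the threshold does not show that the tumor groups are alike, and the intervals give what remains possible.

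**Figure D3:**
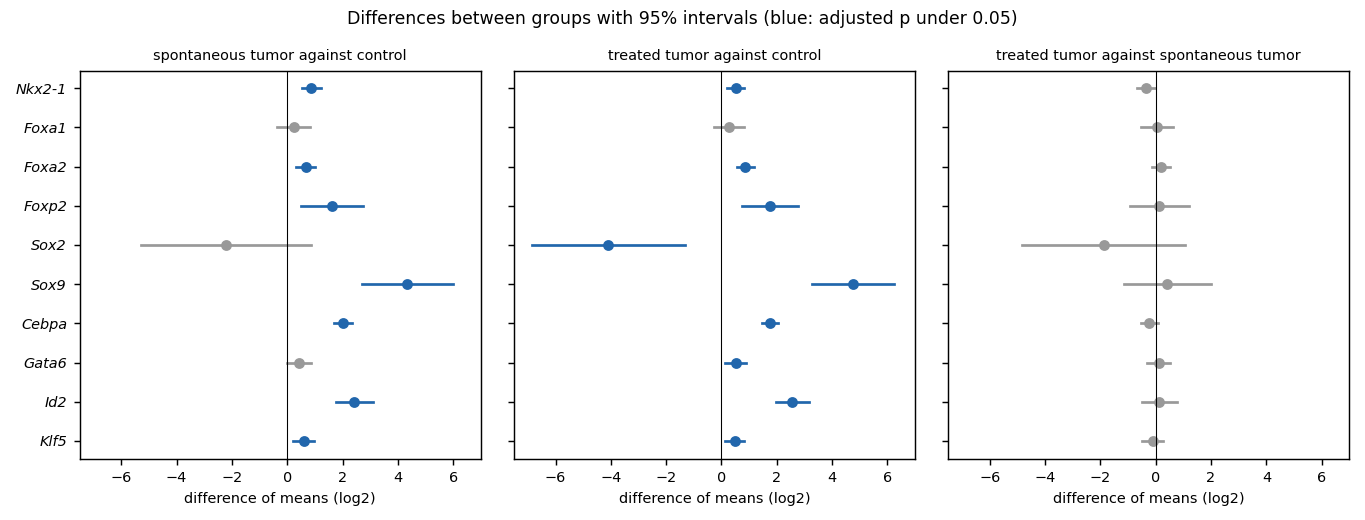
Difference of group means (log2, points) with 95% intervals (lines) for the 10 members in the 3 comparisons, from limma over 15 arrays. Blue marks an adjusted p under 0.05, which 7, 9 and 0 members reached. The intervals of Sox2 are the widest in all 3 panels.

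Genes were also ranked by how closely their profile over the 15 arrays followed that of a member, with likeness measured as the root mean square difference of log2 values after each gene was centred on its own mean. Nearest to Sox2 were Scgb1a1, the secretoglobin of club cells, at 0.97 units, Cbr2, a lung carbonyl reductase, at 1.62, and Cckar, a receptor for cholecystokinin, at 1.72, against an SD of 2.86 for Sox2 itself. Scgb1a1 read 14.35 to 14.49 in control lung, 8.78, 13.63, 13.18 and 13.23 in spontaneous tumors, and 10.90, 8.17, 8.47, 9.12, 13.34 and 8.87 in treated tumors 1 to 6. The tumors with the lowest Sox2 values were thus the 5 with the lowest Scgb1a1 values, and treated tumor 1, with a Sox2 value within the control range, was intermediate for Scgb1a1. Scgb1a1 was picked for its likeness to Sox2 on these same arrays, so the shared order largely follows from the ranking and is not separate evidence. Cckar differed from that order, since treated tumor 1 read 4.37 and treated tumor 4 read 6.25, against 10.28 to 11.39 in control lung. Scgb3a2 and Cyp2f2, also club cell markers, did not separate the tumors as Scgb1a1 did. Scgb3a2 read 5.18 to 9.53 in the 5 tumors lowest in Sox2 and 5.79 to 11.68 in the other tumors. Cyp2f2 read 7.23 to 11.16 in those 5 and 10.80 to 12.06 in the other tumors, so the ranges overlapped for both genes.

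Nearest to Sox9 were Sertad4 at 0.73, Ros1, a receptor tyrosine kinase, at 0.82 and Trpv6, an epithelial calcium channel, at 0.85, against an SD of 2.54 for Sox9. Ros1 read 4.44 to 5.14 in control lung, 8.63 to 10.79 in spontaneous and 8.44 to 10.56 in treated tumors. Nearest to Id2 were Marcksl1 at 0.32, Arfgef3 at 0.34 and Fzd7, a Wnt receptor, at 0.37, against an SD of 1.31. Nearest to Cebpa were Atox1, a copper chaperone, at 0.22, Tmem135 at 0.23 and Nectin2, an adhesion molecule, at 0.23, against an SD of 0.94. Nearest to Foxp2 were Serf1 at 0.45, Prr36 at 0.52 and 9530003J23Rik at 0.53, against an SD of 1.16. All of these profiles include the difference between tumor and control. For the 5 members with an SD under 0.5, the nearest genes lay at 0.11 to 0.22 units, and many genes of small variation are about as near. Among the members themselves the closest pair was Foxa2 and Gata6, at 0.26 units.

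**Figure D4:**
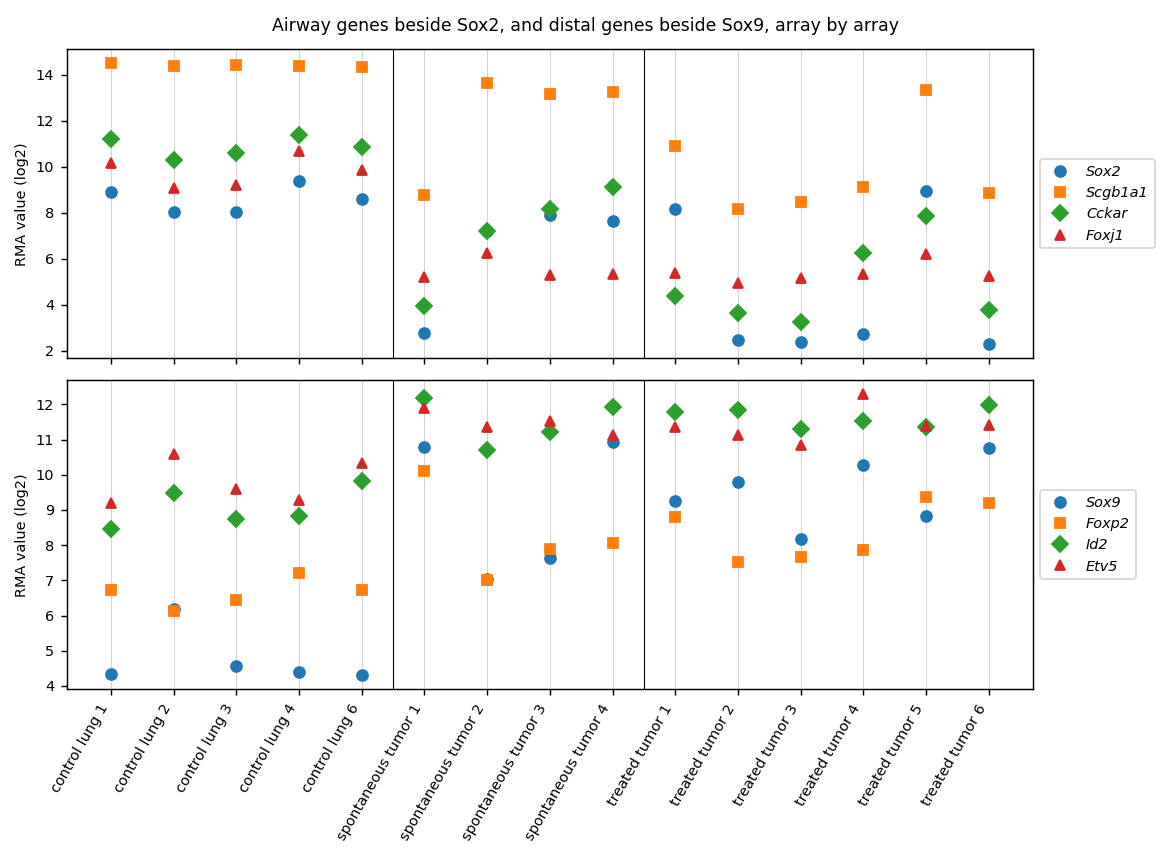
RMA log2 value on each of the 15 arrays (horizontal axis) for Sox2 with Scgb1a1, Cckar and Foxj1 (upper panel) and for Sox9 with Foxp2, Id2 and Etv5 (lower panel). Sox2 is at 2.29 to 2.77 in 5 tumors, in which Scgb1a1 is at 8.17 to 9.12. Scgb1a1 and Cckar were picked as near to Sox2 in profile on these same arrays. Foxj1 is at or below 6.26 in every tumor and at 9.09 or above in every control. Where points coincide, as for Sox9 and Foxp2 in control 2, the later symbol hides the earlier.

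Many conducting airway genes fell in both tumor groups. Of 10 genes, 5 fell in spontaneous and 7 in treated tumors, and 0 rose, where 12.9% and 15% of all genes fell. The median difference was -2.04 and -3.99 against 0.12 and 0.09 for all genes. The falls with all 18 arrays were 4 and 5, and relative to epithelial genes 7 and 9. Scgb3a2, a secretoglobin, fell by 6.00 and 6.47 on the log2 scale, and Foxj1, the master regulator of motile cilia, fell by 4.27 and 4.41. Foxj1 read 9.09 to 10.69 in control lung and 4.94 to 6.26 in the 10 tumors, with no overlap. Scgb1a1 was called lower in treated tumors (-4.59 ± 0.93, limma, adjusted p = 0.00115) and its value in spontaneous tumors was -2.20 ± 1.03 (limma, adjusted p = 0.115). As marker lists, 6 of 6 ciliated genes fell in each tumor group, and 2 of 5 club cell genes fell in spontaneous and 4 of 5 in treated tumors. These marker lists share genes with the conducting airway list. Scgb3a1, of the club cell list, was higher by 1.97 and 1.61 without a call (limma, adjusted p = 0.0830 and 0.104). The mean level of the club cell list was 11.60 to 12.03 on control, 8.07 to 10.65 on spontaneous and 6.47 to 10.49 on treated tumor arrays. The part of these airway cell markers in the Sox2 difference was not tested. Of 3 basal cell markers, a cell type of the large airways that also expresses Sox2, 0 were called in either comparison, and the list was at 5.95 to 6.22 on control and 5.89 to 7.40 on tumor arrays. The 7.40 is that of treated tumor 5, where Trp63, the master regulator of basal cells, read 9.90 against 5.74 to 6.87 in the other tumors. Krt5, a keratin of basal cells, read 6.75 on that array, within the 6.40 to 7.11 of the other tumors. Sox2 was highest among the tumors on the same array. The part of basal cells in that Sox2 value was not tested.

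Genes of the distal tip, the embryonic compartment that Sox9 and Id2 mark, were called in 1 direction in each tumor group. Of 11 such genes other than the members, 5 rose in spontaneous and 7 in treated tumors, and 0 fell. Over all genes 20.1% and 23.8% were called higher. The median difference of the list was 0.86 and 1.12, against 0.12 and 0.09 for all genes. The other 6 and 4 genes were not called, among them Sftpc, at -0.01 and 0.02. Etv4 and Etv5, factors induced by fibroblast growth factor signalling, rose by 2.16 and 1.68 in spontaneous and by 2.23 and 1.60 in treated tumors. Spry2, an inhibitor of the same signalling, rose by 1.49 and 1.56, its receptor gene Fgfr2 by 1.40 and 1.05, and Bmp4, a secreted growth factor, by 1.20 and 1.29. Mycn, a growth-promoting factor, rose in treated tumors by 1.12, and its value of 0.86 in spontaneous tumors was not called (limma, adjusted p = 0.101). Over all 18 arrays 0 of these genes were called in spontaneous tumors and 1, Etv4, in treated tumors. On the scale of epithelial genes 5 rose and 0 fell in spontaneous tumors, and 4 rose and 2 fell in treated tumors.

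Genes that NKX2-1 is known to activate in lung moved mostly up. Of 13 measured, 8 rose and 1 fell in spontaneous tumors, and 8 rose and 2 fell in treated tumors, with a median difference of 0.65 in each. Over all genes 20.1% rose and 12.9% fell in spontaneous tumors, and 23.8% rose and 15% fell in treated tumors. This list holds all 6 alveolar type 2 markers described with Cebpa, of which 5 rose in each group, so the lists are not separate evidence. Besides Napsa, Ctsh, a lysosomal protease that processes surfactant protein, rose by 1.51 and 1.64, Slc34a2, a phosphate transporter of type 2 cells, by 1.22 and 1.17, and Sftpd, a surfactant collectin, by 1.16 and 1.02. The falls were those of airway secretoglobins, Scgb3a2 in both groups and Scgb1a1 in treated tumors. With all 18 arrays 0 rose and 1 fell in spontaneous tumors, and 2 rose and 2 fell in treated tumors. On the scale of epithelial genes the counts were 5 and 2 in spontaneous and 3 and 3 in treated tumors, with medians of 0.34 and 0.12.

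Gastrointestinal genes known to rise when Nkx2-1 is lost in mouse lung tumors were called higher in a few cases. Of 14 measured, 1 (Cdx1, by 0.48) rose in spontaneous tumors, where 20.1% of all genes were called higher. In treated tumors 4 rose, namely Gkn2, Vil1, Anxa10 and Muc5ac, where 23.8% of all genes were called higher. The first count is below the share over all genes and the second near it. With all 18 arrays 1, Gkn2, was still called in treated tumors. Gkn2, a secreted gastrokine of the stomach, read 4.09 to 4.52 in control lung, 8.67, 5.19, 4.32 and 6.95 in spontaneous tumors, and 5.56, 11.47, 10.33, 5.21, 12.51 and 11.04 in treated tumors 1 to 6. Its difference was 5.07 ± 1.22 in treated tumors (limma, adjusted p = 0.00406), and all 6 were above control lung. In spontaneous tumors it was 2.00 ± 1.35 (limma, adjusted p = 0.280). Vil1, an actin-bundling protein of brush borders, rose by 2.03, Anxa10, an annexin of gastric epithelium, by 0.71 and Muc5ac, a gastric and airway mucin, by 0.57 in treated tumors, whereas Hnf4a, a regulator of gut epithelium, was at 0.91 without a call (limma, adjusted p = 0.0648). The relation of these genes to Nkx2-1 in the tumors was not tested. Of the 14, relative to epithelial genes, 0 rose in spontaneous tumors, and 2 rose and 1 fell in treated tumors. Between treated and spontaneous tumors 0 of these genes were called.

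Among 35 other lung epithelial transcription factors, 9 rose and 9 fell in spontaneous tumors, where 20.1% of all genes rose and 12.9% fell. In treated tumors 12 rose and 12 fell, where 23.8% of all genes rose and 15% fell. Falls were thus more frequent than over all genes in both groups. Rises were near the share over all genes in spontaneous tumors and above it in treated tumors. The median differences of 0.08 and 0.06 were near those of all genes. Factors of multiciliated cells were among the falls, Foxj1 as above and Myb, which acts before it in the same lineage and which fell by 4.13 and 4.41. The rises included Elf5, an ETS factor of distal lung epithelium, by 2.57 and 2.61, Tfcp2l1, a grainyhead-like factor, by 1.99 and 2.05, and Grhl2, a regulator of epithelial junction genes, by 0.87 and 1.13. Elf5 read 7.64 to 8.72 in control lung and 9.89 to 11.62 in the 10 tumors. With all 18 arrays 0 rose and 3 fell in spontaneous and 3 rose and 3 fell in treated tumors. Relative to epithelial genes 6 rose and 9 fell in spontaneous and 8 rose and 16 fell in treated tumors, with medians of -0.23 and -0.47.

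Markers of several cell types differed between the groups. Of 8 epithelial genes, 3 rose in each tumor group, with Epcam, an adhesion molecule of epithelia, at 1.13 and 1.54 and Krt18, a simple epithelial keratin, at 0.90 and 1.31. The mean level of the epithelial list was 11.10 to 11.67 on control, 11.53 to 12.00 on spontaneous and 11.55 to 12.33 on treated tumor arrays, so the groups overlapped. Endothelial markers fell in both groups, 6 of 6, with a mean level of 11.23 to 12.26 on control, 7.98 to 8.82 on spontaneous and 7.67 to 8.99 on treated tumor arrays. Of 6 fibroblast markers 4 fell in each group, and 1, the collagen gene Col1a1, rose in treated tumors by 0.81. Alveolar type 1 markers, of the thin gas-exchange cells, fell in 4 of 7 cases in each, and with all 18 arrays in 0 and 1. The part of these marker differences in the members' differences was not tested. On the scale of epithelial genes, Sox9, Cebpa and Id2 remained called in both tumor groups and Foxp2 and Sox2 in treated tumors. A mean of 8 general epithelial genes does not follow shifts among kinds of epithelial cell, so this scale does not measure that part.

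**Figure D5:**
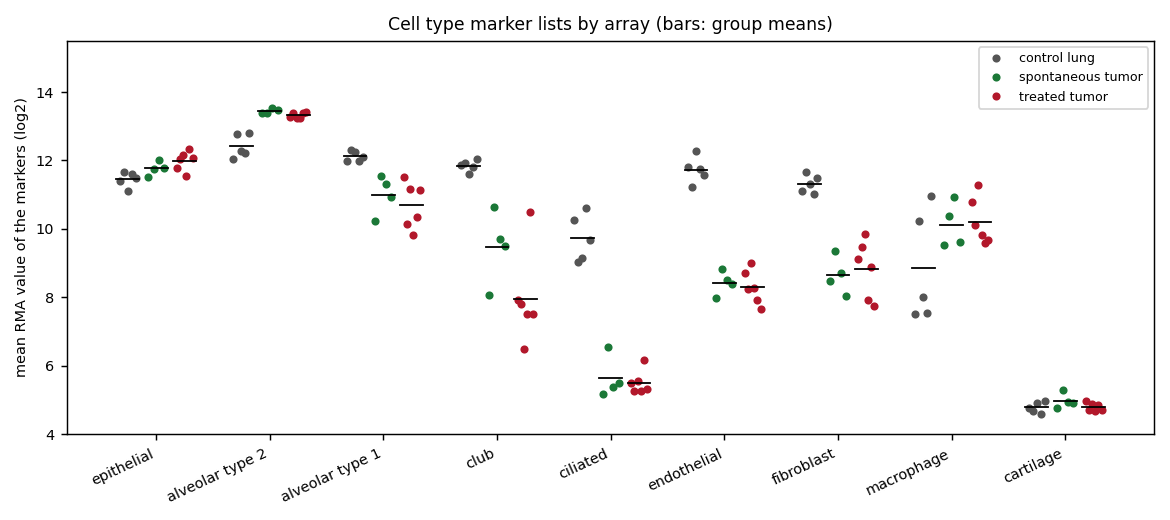
Mean RMA value (log2) of 9 fixed marker lists on each of the 15 arrays, with short bars at group means. Ciliated and endothelial lists of tumors lie below all controls, the alveolar type 2 list above them, and the cartilage list stays between 4.59 and 5.29 in all groups.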

How the data were processed

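Per the labels, RNA from 18 lung and tumor samples was amplified from 100 ng and hybridized to Affymetrix mouse arrays. Log2 values were deposited as the authors made them with RMA, per the submitters' processing notes, a method that removes background, normalizes across arrays and combines the probes of a set. Its version is not given in the sources used here, and no detection calls came with the values. Arrays give no counts, so their number limits the precision.

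Of 45101 probe sets, 34945 carried 1 gene symbol, and for each of 18193 genes the probe set with the highest mean over 15 arrays was used without further normalization. Control 5, spontaneous tumor 5 and spontaneous tumor 6 were left out for their low correlation with the rest. Groups were compared with limma 3.58.1 in R 4.3.3, with 1 mean per group and moderated tests. Benjamini-Hochberg adjustment ran over all genes, and an adjusted p under 0.05 counted as a call. Differences are the group named first minus the other. Members, lists, the arrays left out and the tests were chosen with earlier results of these data known. All members are named, besides the 3 nearest genes of each and, per list and comparison, up to 6 genes of smallest p or any epithelial gene. Alternatives were all 18 arrays, array weights, only the groups compared, other scalings, filters, probe set rules, variance models, a replicate block, a call rule with a change of 1 log2 unit, and each array left out.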

Additional observations from a re-analysis of the deposited data

Results flagged for a closer look

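In 30 sets of values, the 10 members in each of 3 groups, 3 arrays lay far from the other arrays of their group by Dixon's gap test, where chance gives about 5% of such sets, or 1.5. Sox9 of control 2 was 6.17, with the nearest other control at 4.57. Sox2 of spontaneous tumor 1 was 2.77, with the nearest other spontaneous tumor at 7.20. Nkx2-1 of treated tumor 4 was 9.98, with the nearest other treated tumor at 9.34.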

How the results depend on the processing

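Over all 18 arrays the members called fell to 1 in spontaneous and 3 in treated tumors, with array weights over the same arrays they were 7 and 9, relative to epithelial genes 3 and 5, and with at least 1 log2 unit of change 4 and 5. Leaving out each array in turn gave 5 to 7 and 7 to 9, and 0 to 0 between the tumor groups. In 13 pairs of same-numbered samples of different groups, deviations from the group means correlated by -0.15 to 0.30, and 2 pairs exceeded 0.1. In 61 pairs with unlike numbers they correlated by -0.35 to 0.37, and 14 exceeded 0.1. Such correlations cannot settle whether same-numbered samples share an animal or a batch, which the labels do not give. The replicate block gave 7, 9 and 0 called. Of 837 values of single members under alternatives, 771 kept direction and side of the threshold, 38 lost the call, 0 gained one and 28 changed sign. Changes of sign against control were Gata6 in spontaneous tumors with all 18 arrays (-0.20) and, relative to epithelial genes, Foxa1 in spontaneous tumors (-0.079) and Nkx2-1 (-0.0100), Foxa1 (-0.26), Gata6 (-0.0111) and Klf5 (-0.051) in treated tumors. Between the tumor groups, where 0 members were called, signs changed with all 18 arrays for Nkx2-1 (0.034), Cebpa (0.49) and Klf5 (0.74). On the scale of epithelial genes they changed for Foxa1 (-0.18), Foxa2 (-0.030), Foxp2 (-0.086), Gata6 (-0.12) and Id2 (-0.10), and with the replicate block for Foxa1 (-0.077) and Foxp2 (-0.19). With each array left out, that difference ranged from -0.12 to 0.21 for Foxa1, -0.28 to 0.75 for Foxp2, -0.27 to 1.02 for Sox9, -0.031 to 0.22 for Gata6 and -0.15 to 0.35 for Id2. Sox2 was not among the genes tested once those with a mean below the median were left out. The cause of these changes was not tested, and signal near background limits what Sox2 in 5 tumors and Sox9 in control lung can show.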

Other observations

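Relatives of the members in the same protein families were called in both directions. Of 21 relatives measured, 4 rose and 6 fell in spontaneous tumors and 3 rose and 5 fell in treated tumors, with median log2 differences of -0.01 and 0.05 against 0.12 and 0.09 for all genes. The shares of all genes called were 20.1% higher and 12.9% lower in spontaneous and 23.8% and 15% in treated tumors, so the counts of relatives that rose are no more than the shares over all genes give. Over all 18 arrays 0 rose and 1 fell in spontaneous and 1 rose and 1 fell in treated tumors, and relative to epithelial genes 0 rose and 6 fell, and 1 rose and 9 fell. Among the relatives of Id2, Id4 fell, with log2 differences of -1.78 and -2.13, Id1 rose by 0.93 and 0.99, and Id3 fell by 0.69 in treated tumors. The adjusted p of Id4 by limma was 0.000817 and 5.6e-05. Gata5, a relative of Gata6, fell by 1.62 in both groups. Of the relatives of Klf5, Klf4 fell by 1.90 and 1.44, and Klf2, a factor of quiescent endothelium, fell by 1.58 and 1.21. Foxp4, the forkhead relative of Foxp2, rose by 0.97 in treated tumors (limma, adjusted p = 0.00110). Markers of endothelial cells fell in the same tumors in 6 of 6 cases, and their part in the Klf2 difference was not tested.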
